A study of Homo sapiens with 4 samples.

Results

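FOXK2 peaks assigned to the nuclear genes of the mitochondrial respiratory chain were examined in OVCAR5, an established ovarian cancer cell line that the sample labels describe as high grade serous. Members were chosen by gene symbol in the deposited annotation, in which every peak carries the name of its nearest transcription start site (TSS): NDUFA, NDUFB, NDUFC, NDUFS or NDUFV and a digit (complex I), UQCR (complex III), COX with a digit from 4 to 8 and a letter from A to C (complex IV) and ATP5 (complex V, the ATP synthase). They made up 30 of 12471 peaks in replicate 1 and 77 of 27281 peaks in replicate 2, and belonged to 24 and 53 genes, of which 20 were found in both lists and 57 in either.

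The study performed FOXK2 ChIP-seq on unmodified OVCAR5 cells grown in RPMI with serum, as biological duplicates of a single condition, and called peaks separately in each replicate against hg38. There was no second condition, so nothing here compares treatments, and the matched input libraries were not analysed here. The peak lists hold no expression values, so cell identity was not checked against marker genes. All peaks had one width within a list, 210 bp in replicate 1 against 256 bp in replicate 2. Scores were integer multiples of a unit that was 0.189 in replicate 1 and 0.149 in replicate 2 (37 of 37 and 47 of 47 distinct scores below 10, within 0.006), so the sequence tags behind each peak could be recovered if the peak caller kept its default scaling. Under that scaling the libraries held about 53010000 and 67240000 tags. Because scores are scaled to the library, each peak was placed by its percentile, the share of peaks in its own list that scored at or below it.

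The respiratory chain passes electrons from NADH and succinate through membrane-bound complexes to oxygen and uses the resulting proton gradient to make ATP. Most of its subunits are encoded in the nucleus, and their promoters are known as targets of NRF1, of ETS-family factors such as GABPA and of YY1. FOXK2 is a forkhead factor, a family whose proteins bind sequences containing TGTTTAC. In the reference annotation, 84 protein-coding genes matched the symbols: 39 of complex I, 9 of complex III, 15 of complex IV and 21 of complex V, with paralogs, readthrough genes and the regulators ATP5S and ATP5IF1 counted by symbol. NDUFA4 and NDUFA4L2 were likewise counted with complex I by symbol, although RefSeq now names them COXFA4 and COXFA4L2, after cytochrome c oxidase. ATP5S, named DMAC2L in RefSeq, was counted with complex V. The 3 further symbols in the lists were the pseudogene UQCRBP1 and the noncoding RNAs NDUFA6-DT and NDUFV2-AS1.

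TGTTTAC lay within 100 bp of the centre in 5 of 30 respiratory peaks of replicate 1 and in 11 of 77 of replicate 2. The following 29-base stretches of hg38 show 4 of the 5 sites that lay in peaks of both replicates (the other, assigned to COX6C, is given by its values only), each far from the TSS of the gene it was assigned to, with the heptamer in capitals and each sequence read 5′ to 3′ on the strand that carries it. The sites near ATP5PF, ATP5PO and UQCRHL are on the minus strand and the site near NDUFV2 is on the plus strand.
ATP5PF, in an APP intron, chr21:25935026-25935054: cctaacctctgTGTTTACaaagtgtttga
ATP5PO, in an ITSN1 intron, chr21:33809011-33809039: ctttccttcctTGTTTACattttggtgat
NDUFV2, intergenic, chr18:9073805-9073833: tagccttagccTGTTTACtgacacgtggg
UQCRHL, intergenic, chr1:15800096-15800124: gtgcctgcctgTGTTTACaagtaggtctt

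The only respiratory promoter peak with the heptamer was the one assigned to the divergent transcript NDUFA6-DT, found in replicate 2, whose site on the minus strand is shown with capitals marking TGTTTAC.
NDUFA6-DT, promoter, chr22:42091486-42091514: gctcctcttcaTGTTTACataacctcagt

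Some promoter peaks held sites of other factor families, whose shares are set against those of all promoter peaks further on. The next set shows the NRF1-type nonamer GCGCATGCG in NDUFS6 (plus strand) and NDUFS7 (minus strand), the YY1-type nonamer AAGATGGCG in NDUFS7 (plus strand) and the ETS-type heptamer CCGGAAG in UQCR11 (minus strand), with the motif in capitals. All lay within 100 bp of the peak centre in both replicates.
NDUFS6, NRF1-type, chr5:1801351-1801379: cagaagccgtGCGCATGCGttagcgctaa
NDUFS7, NRF1-type, chr19:1383823-1383851: gcggctcggaGCGCATGCGgaaaccggaa
NDUFS7, YY1-type, chr19:1383914-1383942: ggccgaggccAAGATGGCGgtgctgtcag
UQCR11, ETS-type, chr19:1605562-1605590: tccaaccctcgCCGGAAGttactgtaagt

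Respiratory peaks lay close to gene starts. The deposited annotation placed 13 of 30 in promoters in replicate 1 (43.3%, Wilson 95% interval 27.4% to 60.8%), against 21.7% of all peaks in that list, and 40 of 77 in replicate 2 (51.9%, 41.0% to 62.7%), against 18.0% of all peaks. These intervals, and those that follow, cover counting error only. The median distance to the TSS was 335 bp in replicate 1 and 346 bp in replicate 2, against 16139 bp and 20161 bp over all peaks. Introns held 7 respiratory peaks in replicate 1 (23.3%, against 39.0% of all peaks) and 14 in replicate 2 (18.2%, against 40.6%). Intergenic sequence held 6 (20.0%, against 34.1%) and 21 (27.3%, against 36.5%).

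**Figure D1:**
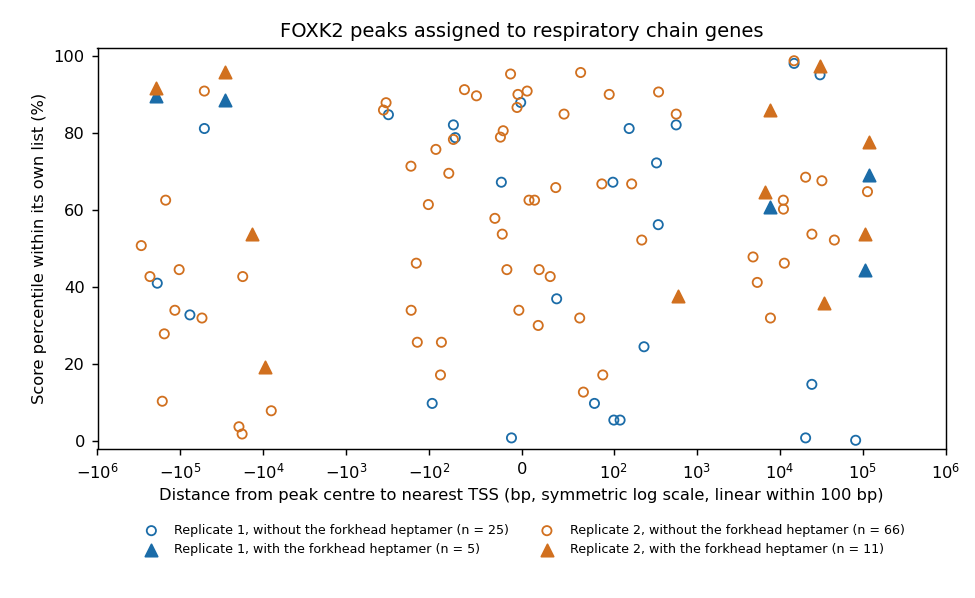
Each point is a FOXK2 peak assigned to a respiratory chain gene, in replicate 1 (blue, n = 30) or replicate 2 (orange, n = 77), with its signed distance to the nearest TSS in bp on a symmetric log axis and its score percentile within its own list. Filled triangles hold the forkhead heptamer, and all but 1 of them lie more than 1000 bp from a TSS.

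Counted by gene, the promoter share stood further above that of all genes in replicate 2 than in replicate 1. Of the 84 protein-coding genes, 13 had a promoter peak in replicate 1 (15.5%, 9.27% to 24.7%), against 11.9% of all 20052 protein-coding genes, and 38 in replicate 2 (45.2%, 35.0% to 55.9%), against 21.2%. With replicate 2 limited to its 12471 highest-scoring peaks, 24 genes had one (28.6%), against 13.3% of all genes. Both lists had one for 11 genes (13.1%, 7.47% to 21.9%), against 9.3% of all genes, and in either it was 40 genes (47.6%, 37.3% to 58.2%), against 23.7%. A peak anywhere was assigned in both replicates to 20 of the 84 genes (23.8%, 16.0% to 33.9%), against 28.6% of all genes, which lies within that interval. The order against all genes changed with the count used: a peak anywhere in replicate 2 was assigned to 59.5% of respiratory genes against 51.7%, and a peak within 1000 bp of the TSS in both lists to 15.5% against 11.5%.

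By complex, promoter peaks in both replicates were found for 6 of 39 complex I genes, 2 of 9 complex III genes, 0 of 15 complex IV genes and 3 of 21 complex V genes, against the 9.3% of all genes. In either replicate the counts were 17, 6, 6 and 11, or 43.6%, 66.7%, 40.0% and 52.4%, against 23.7% of all genes. Complex IV, cytochrome c oxidase, thus had 5 genes with a promoter peak in replicate 2 (COX5A, COX5B, COX6A1, COX7C and COX8A) and a different gene, COX7A2L, in replicate 1. With 15 genes, a count of 0 in both allows a share of up to 20.0% (3 counts of the total), which is above the share of all genes. The same count was made for ribosomal protein genes, which are also expressed in nearly all cells. Of 77 mitochondrial ribosomal protein genes, 28 had a promoter peak in both replicates (36.4%, 26.5% to 47.5%), as did 22 of 83 cytosolic ones (26.5%, 18.2% to 36.9%), against the same 9.3%.

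**Figure D2:**
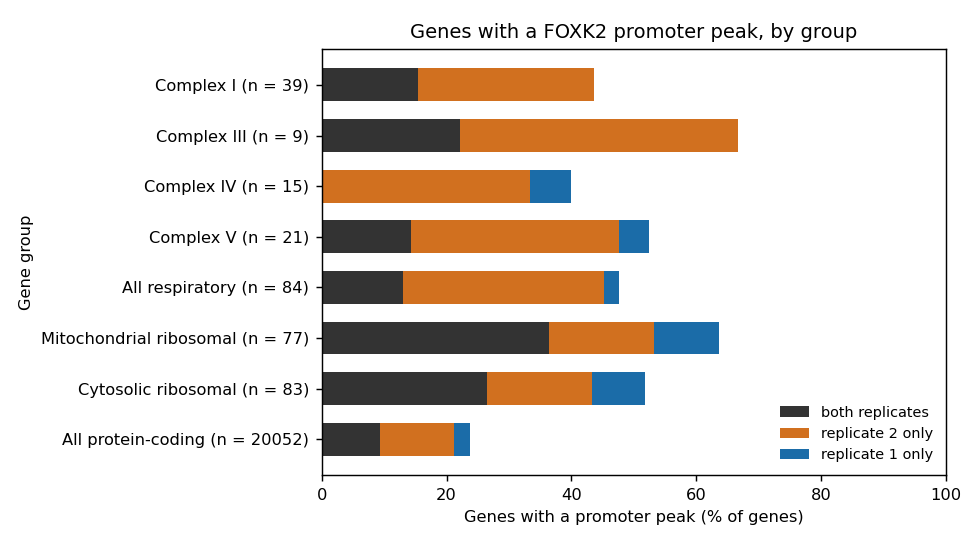
Bars give the percentage of genes in each group with a FOXK2 promoter peak in both replicates (black), in replicate 2 only (orange) or in replicate 1 only (blue), with the number of genes beside each name. Most respiratory genes with a promoter peak had it in replicate 2 only, while the black segment was longest in the mitochondrial ribosomal protein genes (36.4%).

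The 11 genes with overlapping promoter peaks ranged from the top 10% of a list to its weakest peaks. Positions of peak centres are given relative to the TSS, with negative values upstream. NDUFB1, an accessory subunit of the membrane arm of complex I, had the highest mean percentile. Its peak at chr14:92121705-92121915 scored 10.8 in replicate 1 (rank 1520, percentile 87.82, about 57 tags) and its partner in replicate 2 scored 21.3 (rank 1309, percentile 95.21, about 143 tags), centred at -1 and -12 bp. Counting error alone put those tags at 43.2 to 73.9 and 121 to 168 (exact Poisson 95% intervals).

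NDUFA11, which also belongs to the complex I membrane arm, had a peak at -312 bp in replicate 1 (score 9.81, rank 1915, percentile 84.65) and at -333 bp in replicate 2 (14.9, rank 3340, 87.76). Its window held 3 CCAAT boxes in both lists. The peak of NDUFS6, an accessory subunit of the complex I peripheral arm, reached 9.24 (rank 2246, percentile 82.0) and 15.9 (rank 2852, 89.55). The NRF1-type site shown above lay 57 bp from the peak centre in replicate 1 and 32 bp in replicate 2.

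NDUFS7 encodes a core iron-sulfur subunit at the ubiquinone end of the complex I electron path. Its peak scored 5.09 (rank 7875, percentile 36.86) and 12 (rank 5326, 80.48). NDUFA13, another complex I accessory subunit, had the lowest mean percentile of the pairs, with 3.96 (rank 11262, percentile 9.703) and 4.61 (rank 22620, 17.09), and its peaks shared 49 bp.

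In complex III, UQCRH, the hinge protein that contacts cytochrome c1, had peaks of 8.68 (rank 2659, percentile 78.69) and 17.1 (rank 2416, 91.15), at -72 and -62 bp. UQCR11, a small membrane subunit, differed most between lists. Its peak was among the last of replicate 1 (score 3.4, rank 12378, percentile 0.7537, about 18 tags) but in the upper part of replicate 2 (10.9, rank 6648, percentile 75.64, about 73 tags). UQCR11 was also the only one of the 11 with 2 ETS-type sites in its window in both lists.

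In complex V, ATP5PF, coupling factor 6 of the peripheral stalk, had peaks of 7.17 (rank 4101, percentile 67.12) and 16.2 (rank 2755, 89.91), at -22 and -4 bp. ATP5S, a factor B-like protein that is not a stable part of the enzyme, had peaks of 9.24 (rank 2246, percentile 82.0) and 13.5 (rank 4149, 84.8), at 564 and 565 bp. ATP5MF, subunit f of the membrane part, had weak peaks of 3.77 (rank 11801, percentile 5.38) and 5.5 (rank 19113, 29.94). All 11 genes had the higher percentile in replicate 2, the longer list.

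**Figure D3:**
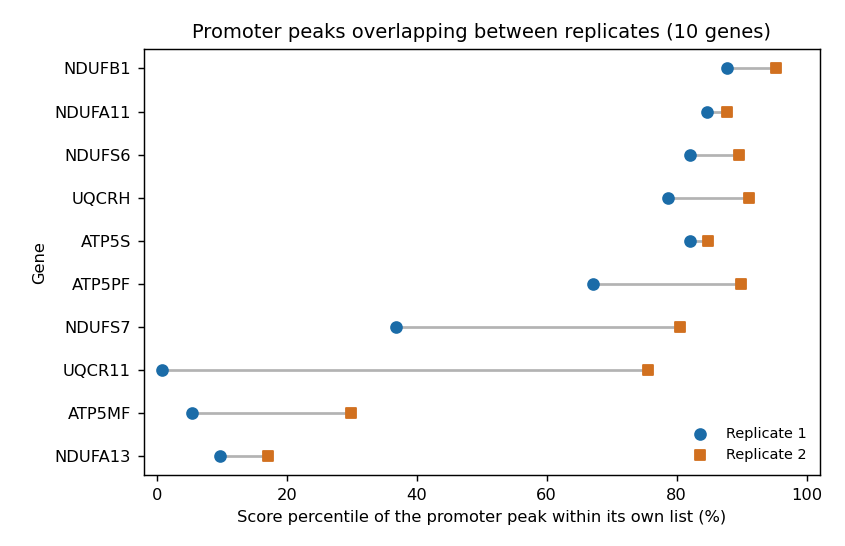
Score percentiles of the promoter peak in replicate 1 (blue circles) and replicate 2 (orange squares) for 10 of the 11 genes whose promoter peaks overlapped, ordered by mean percentile. The replicates lie close for NDUFA11 and ATP5S and far apart for UQCR11, at 0.7537 and 75.64.

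None of the 13 respiratory promoter peaks of replicate 1 was in the top 10% of its list by score, against 16.0% of all promoter peaks, and 4 of 40 were in replicate 2 (10.0%), against 17.2%. These 4 belonged to UQCRC2, NDUFB1, UQCRH and NDUFB3. Their medians were close to those of promoter peaks in general, at percentile 67.1 against 60.8 in replicate 1 and 66.2 against 64.7 in replicate 2. Their median GC content was 62.7% against 63.2% in replicate 1 and 62.9% against 63.7% in replicate 2.

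Overlap between replicates was near that of other peaks. In replicate 1, 23 of the 30 respiratory peaks shared at least 1 bp with a peak of replicate 2 (76.7%, 59.1% to 88.2%), against 74.9% of all. From the side of replicate 2 it was 24 of 77 (31.2%, 21.9% to 42.2%), against 34.2%. Of the 40 promoter peaks of replicate 2, 13 were overlapped (32.5%, 20.1% to 48.0%), against 43.9% of all its promoter peaks. The other 27 spanned scores from 4.31 to 16.8. The strongest were at NDUFB3, an accessory subunit of the complex I membrane arm (score 16.8, rank 2515, percentile 90.78), at NDUFS8, a core iron-sulfur subunit of complex I (14.3, rank 3679, 86.52), and at ATP5MC1, one of the genes for the rotating ring subunit c (14, rank 3862, 85.85). In replicate 1, the promoter peaks of ATP5PD (4.53, rank 9428) and COX7A2L (3.96, rank 11262) had no partner in replicate 2.

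For UQCRC2, which encodes a core protein of complex III, the paired peaks fell into different annotation classes. Its replicate 2 peak was a promoter peak (22.0, rank 1202, percentile 95.6, 64 bp from the TSS) and overlapped by 145 bp a replicate 1 peak that was classed as 5′ UTR (9.05, rank 2363, percentile 81.06, 153 bp). The readthrough gene NDUFC2-KCTD14 had a pair classed as 5′ UTR in both lists, with 7.73 (rank 3477, percentile 72.13) and 16.7 (rank 2582, 90.54).

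Each peak carries only the name of its nearest TSS, and many respiratory genes start close to a neighbour read in the other direction. A coding TSS on the opposite strand, pointing away, lay within 1000 bp for 29 of 84 respiratory genes (34.5%, 25.2% to 45.2%), against 14.7% of all genes. Of the 11 genes with promoter peaks in both lists, 7 had one (63.6%, 35.4% to 84.8%), against 20.8% of all genes with such peaks. Among the neighbours were CPSF2 for NDUFB1, MRPL36 for NDUFS6, TSSK6 for NDUFA13, LRRC41 for UQCRH and GABPA for ATP5PF. Among these 7, the closest starts were those of NDUFS6 and MRPL36, a mitochondrial ribosomal protein gene, at 41 bp. The starts of NDUFB1 and CPSF2 were 52 bp apart. Those of ATP5PF and GABPA, itself an ETS-family regulator of respiratory genes, were 55 bp apart. Which of the paired genes a peak serves cannot be read from its position.

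When promoters were taken instead as 1000 bp upstream to 100 bp downstream of any coding transcript start in GENCODE, whatever name the peak carried, 23 of 84 respiratory genes had a peak there in replicate 1 (27.4%, 19.0% to 37.7%), against 17.3% of all genes. In replicate 2 it was 51 (60.7%, 50% to 70.5%), against 30.3%. In both it was 20 (23.8%, 16.0% to 33.9%), against 14.4%. This definition differs from the deposited class in the starts it uses as well as in ignoring peak names. Of those 20 genes, 6 had, in at least 1 list, only a peak named for a gene outside the respiratory symbols. The 20 rest on 18 distinct pairs of peaks, since NDUFC2 and ATP5MF each share a pair with their readthrough gene. NDUFA2, an accessory complex I subunit with a start 184 bp from that of IK, had the strongest, named for the microRNA gene MIR3655 (score 14, rank 742, percentile 94.06 in replicate 1 and 29.6, rank 552, 97.98 in replicate 2).

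The peak over the start of NDUFB5, an accessory complex I subunit, was named for MRPL47 (10.6, rank 1588 and 19.8, rank 1605), and that over NDUFS3, a core subunit, for KBTBD4 (8.3, rank 2960 and 15.8, rank 2921). The small complex III subunit gene UQCRQ, whose start is 5 bp from that of GDF9, had peaks named for GDF9 (7.17, rank 4101 and 12.2, rank 5177). NDUFS1, a core subunit of the NADH-oxidizing arm, had a replicate 1 peak named for EEF1B2 (5.28, rank 7370). ATP5PB, peripheral stalk subunit b, had weak peaks named for WDR77 (3.96, rank 11262 and 5.06, rank 20908). These genes count as lacking a peak, or lacking one in replicate 1, under the nearest-TSS names.

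Of the 84 genes, 30 had no peak under their own name in either list (35.7%, 26.3% to 46.4%), against 45.6% of all genes. In complex I they were NDUFA1, NDUFA2, NDUFA3, NDUFA4, NDUFA6, NDUFA9, NDUFA10, NDUFB2, NDUFB4, NDUFB5, NDUFB8, NDUFB11, NDUFC2, NDUFS3 and NDUFV3. In complex III they were UQCRB and UQCRQ, and in complex IV they were COX6A2, COX6B1, COX6B2, COX7B and COX8C. In complex V they included both catalytic-core subunits, ATP5F1A and ATP5F1B, with ATP5F1D, ATP5MG, ATP5MGL, ATP5MK, ATP5PB and the readthrough ATP5MF-PTCD1. COX6A2, COX6B2 and COX8C are known as tissue-restricted isoforms. NDUFA6 had a replicate 2 peak over a GENCODE promoter, under the name NDUFA6-DT.

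The forkhead heptamer was found in few of the respiratory promoter peaks, which are also few, and the interval of each promoter share holds the share of all promoter peaks. TGTTTAC on either strand was in 16.7% of respiratory peaks in replicate 1 (7.34% to 33.6%), against 30.5% of all peaks, and in 14.3% in replicate 2 (8.17% to 23.8%), against 28.2%. In windows 2000 bp to each side of the centre it was in 1 of 60 (1.67%) and 2 of 154 (1.3%), against 2.88% and 2.89% for all peaks. Of the promoter peaks, 0 of 13 in replicate 1 held it, which allows a share of up to 23.1% (3 counts of the total), against 14.4% of all promoter peaks. In replicate 2 it was 1 of 40 (2.5%, 0.443% to 12.9%), against 10.9%. That 1 was named for NDUFA6-DT and also lay over a GENCODE promoter of the coding gene NDUFA6. Outside promoters the shares were 29.4% (5 of 17, 13.3% to 53.1%), against 35.0%, and 27.0% (10 of 37, 15.4% to 43.0%), against 32.0%. Since more of the respiratory peaks are promoter peaks, the lower share over all of them and the promoter location cannot be told apart.

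The heptamer was also counted in the genome around the starts, whether or not a peak lay there. From 250 bp upstream to 50 bp downstream of the TSS, in RefSeq promoter sequences of GRCh38.p14 found for 68 of the 84 genes, TGTTTAC was in 0 windows, which allows a share of up to 4.41% (3 counts of the total), against 2.61% of all protein-coding genes. Of the windows whose promoter had a peak in each list, it was in 0 of 8 respiratory ones, which allows a share of up to 37.5%, and in 8.06% of those of all genes. The absence says only that these letters were not in these windows. From 1000 bp upstream to 100 bp downstream it was in 10 of 68 (14.7%, 8.19% to 25%), against 11.4% of all genes, and the looser TNTTTAC was in 4 of the 68 shorter windows (5.88%, 2.31% to 14.2%), against 8.16%.

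The other motifs were at or near the level of promoter peaks in general, except for 2 with few sites. CCGGAAG, the ETS-type heptamer, was in 2 of 13 promoter peaks of replicate 1 (15.4%, 4.33% to 42.2%), against 18.0%, and in 7 of 40 of replicate 2 (17.5%, 8.75% to 31.9%), against 18.4%. GCGCATGCG was in 2 of 13 (15.4%, 4.33% to 42.2%) and 4 of 40 (10.0%, 3.96% to 23.1%), against 2.77% and 2.79%, in NDUFS6 and NDUFS7 in both lists and in NDUFA8 and ATP5ME in replicate 2. AAGATGGCG was in 1 of 13 (7.69%, 1.37% to 33.3%) and 3 of 40 (7.5%, 2.58% to 19.9%), against 2.18% and 2.2%, in NDUFS7, NDUFA7 and UQCRC1. GGGCGG, the SP-type box, was in 53.8% and 52.5%, against 52.9% and 53.7%, and CCAAT in 23.1% and 27.5%, against 28.7% and 28.6%. A match is a description of the sequence and does not show which protein was bound.

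**Figure D4:**
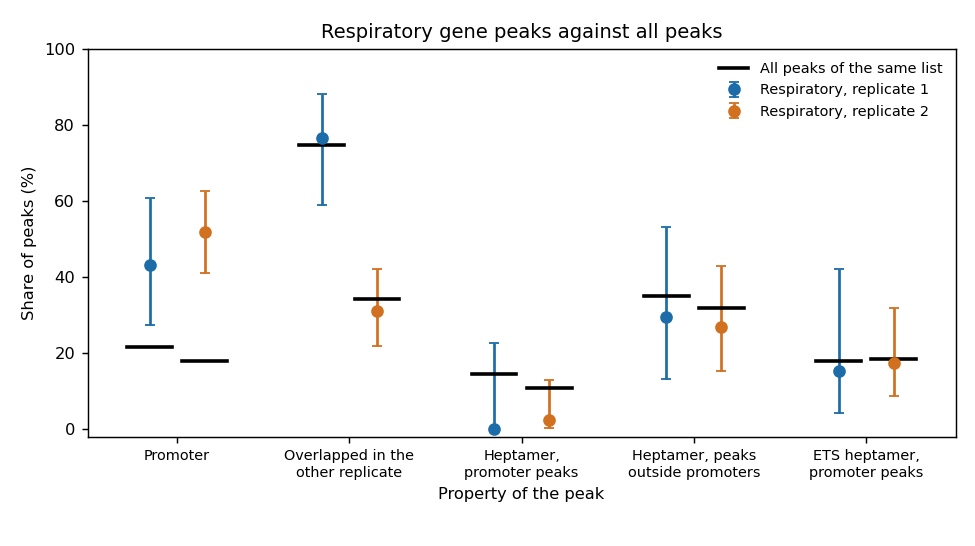
Points give the share of respiratory peaks with each property, with Wilson 95% intervals, in replicate 1 (blue) and replicate 2 (orange), and black lines give the share over all peaks of the same list and class. The promoter share lies above its line in both replicates, and the forkhead heptamer in promoter peaks lies below it, at 0 of 13 and 1 of 40 peaks.

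The highest-scoring respiratory peak of each list lay in intron 1 of NDUFV2, which encodes an iron-sulfur subunit of the NADH-oxidizing module of complex I. It scored 20.6 in replicate 1 (rank 255, percentile 97.96, about 109 tags) and 35.1 in replicate 2 (rank 368, percentile 98.65, about 236 tags), 14871 and 14854 bp downstream of the TSS. The window held no TGTTTAC and 3 matches to TGANTCA, the AP-1 type heptamer, which is palindromic at its ends and was in 25.2% and 24.6% of all peaks outside promoters. The 121-base stretch of intron 1 that spans them on the plus strand is shown with the TGANTCA matches in capitals.
NDUFV2, intron 1, chr18:9117394-9117514: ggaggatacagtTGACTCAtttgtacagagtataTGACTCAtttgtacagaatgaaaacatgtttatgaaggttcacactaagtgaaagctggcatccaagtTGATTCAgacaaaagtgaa

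A second NDUFV2 pair, at -28723 bp in replicate 1, carried the forkhead site shown above and scored 10.9 (rank 1439, percentile 88.47) and 22.5 (rank 1150, 95.79). NDUFV2 had 4 peaks in replicate 1 and 5 in replicate 2, more than any other respiratory gene in either list, and none of them was in its promoter. The other intergenic ones reached -190443 bp in replicate 1, and none of these overlapped a peak of the other list.

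Apart from the UQCRC2 pair, classed as promoter in replicate 2, the next strongest pairs outside promoters lay inside other genes or between genes. The pair assigned to ATP5S was in intron 3 of CDKL1, a kinase gene, with 14.7 (rank 625, percentile 95) and 26.9 (rank 730, 97.33). A TGTTTAC lay at -97 bp from its centre in replicate 2 and outside the window in replicate 1. The pair assigned to ATP5PF was in intron 11 of APP, the gene of the amyloid precursor protein, at -199365 bp from the ATP5PF start in replicate 1, with 11.3 (rank 1313, percentile 89.48) and 17.4 (rank 2310, 91.54). Its forkhead site lay at 21 bp and -11 bp from the peak centres.

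ATP5MC3, another subunit c gene, had an intergenic pair at -51526 bp in replicate 1, with 9.05 (rank 2363, percentile 81.06) and 16.8 (rank 2515, 90.78), and no TGTTTAC. UQCRHL, an intronless copy of UQCRH, had a pair with the heptamer 7531 bp downstream in replicate 1 (6.6, rank 4892 and 14, rank 3862). Whether reads of near-identical copies were misplaced was not tested. COX6C was the only complex IV gene with peaks in both replicates, a pair in intron 40 of VPS13B that held the heptamer (7.36, rank 3872 and 11.3, rank 6121), 119035 bp from the COX6C start. Its peak near its own TSS, 343 bp downstream, was in replicate 1 only (6.23, rank 5476). At such distances, assignment to a respiratory gene rests on the nearest-TSS rule alone.

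Companion genes of the chain, outside the symbols above, were counted the same way against the 9.3% of all genes. Of the 4 complex II subunit genes, 1 had such peaks: SDHD, a membrane anchor of succinate dehydrogenase (18.1, rank 363 and 33.3, rank 418). Of 5 subunits and carriers that the symbols miss, COX4I1, COX4I2, NDUFAB1, CYC1 and CYCS, 0 had promoter peaks in both lists. In replicate 2, 3 of these 5 had a promoter peak. Of 48 assembly factor genes, 9 had promoter peaks in both lists (18.8%). NDUFAF6, needed for complex I assembly, held the second-ranked peak of both lists (104.9 and 224.1). COX19, a copper-handling factor for complex IV, followed with 14.3 (rank 690) and 19.9 (rank 1573), and COA3, an early complex IV assembly factor, with 11.3 (rank 1313) and 20.1 (rank 1544).

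Of 13 regulators of mitochondrial genes, 2 had a promoter peak in both replicates (15.4%), although 9 had a peak somewhere in both (69.2%), against 28.6% of all genes. The best overlapping pairs of these 9 lay near the TSS or far from it. In replicate 1 the positions were -6 bp (TFB2M), -376 (PPRC1), 626 (NFE2L2), 1174 (YY1) and -3517 (PPARGC1A). The others were at 5233 (NFE2L1), -33096 (PPARGC1B), 34397 (NRF1) and 50373 bp (TFAM). PPARGC1A had 6 peaks in replicate 1 and 15 in replicate 2. TFB2M, the mitochondrial transcription initiation factor, had the strongest promoter pair among them, at -6 bp in both lists (18.7, rank 338 and 37.9, rank 302).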

How the data were processed

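FOXK2 binding in OVCAR5 cells was taken from 1 peak list per replicate. The authors mapped single-end reads to hg38 with Bowtie2 2.2.6 and called and annotated peaks in each replicate with HOMER 4.10. The deposited peak score is scaled to the library, and the deposited focus ratio is a fraction of tags on the expected side of the peak centre. Other deposited columns hold the distance to the nearest TSS, the annotation class and the gene name. No threshold was added to the lists, and the focus ratio supports no statement above. Scores were compared only by rank or percentile within a list.

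Genes were counted over RefSeq protein-coding genes matched on Entrez ID, and promoters in the second definition came from GENCODE 44. In the deposited annotation the promoter class is the authors' own. Peaks overlapped if they shared at least 1 bp. Motif matches were counted on either strand up to 100 bp from the peak centre. A divergent neighbour was a coding TSS on the opposite strand within 1000 bp, transcribed away, with an overlap of at most 200 bp. No test between groups was run, since there was 1 condition with 2 replicates. Wilson and exact Poisson intervals are at 95%, and the limit given for a share of 0 is 3 counts of the total.

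Members, gene lists and motifs were chosen with earlier results of these data known. The text names genes with promoter peaks that overlap between replicates, chosen by mean percentile, except 1 that is not reported here and enters the counts only; the 5 genes with the best overlapping peak outside promoters; the strongest genes with a promoter peak in 1 list; genes without a peak; and companion genes with a mean percentile of at least 90. Genes with peaks named for a neighbour, and UQCRHL, COX6C and NDUFC2-KCTD14, were chosen after their values were seen. So was the naming of all regulators with a peak in both lists.

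The counting of overlaps and motifs was checked on simulated data (largest error 0 percentage points over 2 sets each). Python 3.11.15, numpy 2.4.6, pandas 2.3.3, scipy 1.17.1 and matplotlib 3.10.9 were used. Reads, input libraries and the series' RNA-seq libraries were not analysed here, and signal was not compared with input.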

Additional observations from a re-analysis of the deposited data

How the results depend on the processing

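The counts of 20 genes with a peak and 11 with a promoter peak in both replicates moved most with replicate 2 alone. A peak in both lists is then no longer required. With replicate 2 limited to the length of replicate 1 they became 18 and 9. Of 80 alternative values for 16 results, 53 stayed within 1.5 times the count reported or, for shares and medians, within the 95% interval of the value reported. This count does not cover the order against all genes, which turned for TSS windows with TGTTTAC (0% against 2.61%, and 14.7% against 11.4% in the longer window) and for genes with a peak in both lists (23.8% against 28.6%, and 15.5% against 11.5% within 1000 bp of the TSS). The 20 genes with a peak in both lists became 13 with the higher-scoring part of each list and 11 with promoter peaks only, and 24 to 53 with 1 replicate alone. The 11 genes with a promoter peak in both became 7, 20 with GENCODE promoters under any peak name, and 13 to 40 with 1 replicate alone. The 40 genes, noncoding ones included, with a promoter peak in replicate 2 became 25 with that list limited to the length of replicate 1, an alternative chosen after seeing the data. Complex I went from 9 genes to between 9 and 26 with 1 replicate alone. Complex III went from 4 to 2 with promoter peaks only and to between 4 and 8 with 1 replicate alone. Complex IV went from 1 to 0 within 10000 bp of the TSS, to 0 with promoter peaks only and to between 4 and 7 with 1 replicate alone. Complex V went from 6 to 3 in the higher-scoring part, to 3 within 10000 bp, to 3 with promoter peaks only, and to between 7 and 12 with 1 replicate alone. The change to GENCODE promoters alters the starts used and ignores peak names. Use of 1 replicate alone drops the need for a peak in both lists. The other changes follow from fewer peaks counted.

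The overlapped share of respiratory peaks in replicate 1 rose from 76.67% to 94.12% in the higher-scoring part, and that of replicate 2 from 31.17% to 50% at equal list length. The TGTTTAC share in replicate 1 went from 16.67% to 36.67% with TNTTTAC, 1.667% in control windows and 5.556% within 10000 bp of the TSS, and in replicate 2 from 14.29% to 1.299% in control windows and 8.163% within 10000 bp. The share of TSS windows with the heptamer went from 0% to 14.71% from 1000 bp upstream to 100 bp downstream, a longer window, and to 5.882% with TNTTTAC. Beyond what each alternative changes by construction, the cause was not tested. No paired analysis was run, since the results come from no test and the input libraries were not analysed here. With 2 replicates that differ in list length, differences in depth and in binding cannot be told apart for weak peaks found in 1 list only.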
